A study of Rattus norvegicus with 18 samples.

Results

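Gene expression in the cortex of rats exposed to chronic immobilization stress was compared with that in the cortex of rats that were only handled. The comparison rests on 6 of the 18 arrays in the study, 3 titled Stress-Cortex and 3 titled Control-Cortex, each hybridised with total RNA. The other 12 arrays came from the amygdala and the hippocampus, 6 from each region and 3 per treatment, and they were used to share the estimate of the spread and to test where the cortex differed. Immobilization is a restraint stressor, and handling without restraint was the only treatment of the control rats. Strain, sex, age, length of the stress and the part of the cortex taken are not stated in the labels. The region was read from the title and the description, because the source field named the amygdala for every array.

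The brain is wrapped in meninges, whose innermost layers, the arachnoid and the pia, cover the cortical surface and follow its vessels inward. Their fibroblasts make fibrillar collagens and small proteoglycans, and the leptomeningeal barrier secretes Igf2, Igfbp2 and prostaglandin D synthase and carries transporters for organic anions and sulfate. Below the pia lie glutamatergic neurons in layers, GABA interneurons, glia and vessels. Neurons that fire switch on immediate early genes such as Fos and Egr2, and stress hormones act on neurons and glia through the glucocorticoid receptor Nr3c1 and the mineralocorticoid receptor Nr3c2.

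The 6 cortex arrays had median intensities of 49.5 to 51.0 array units, and the mean Spearman correlation of each with the other arrays of its group was 0.980 to 0.985. In a principal component analysis of these 6 arrays the first component held 32.5% of the variance. On it the 3 stress arrays scored -14.3, -10.6 and -12.9, and the 3 handled arrays scored 13.3, 10.7 and 13.9, with no overlap. The regional labels were checked on 31 transcripts of neocortical layers. Of these, 20 were higher and 6 lower in handled cortex than in handled hippocampus, at an adjusted p under 0.05. Against handled amygdala 14 were higher and 7 lower. Of 12 hippocampal neuron genes 4 were higher and 6 lower in handled cortex than in handled hippocampus. Of 12 amygdala genes 3 were higher and 7 lower than in handled amygdala. The shares over all genes are not given here, so no excess over them can be read from these counts. Mef2c, a transcription factor abundant in neocortical neurons, was 0.71 log2 units above handled amygdala and 2.49 above handled hippocampus. Fezf2, a transcription factor of deep-layer projection neurons, was higher by 0.73 and 1.13, and Cux2, of upper layers, by 0.64 and 2.78. Bcl11b, another deep-layer factor, was lower in handled cortex than in handled amygdala and hippocampus, at -0.75 and -0.69. Titles of the arrays of a group share the tag e1 and differ only in the last tag, le1 to le3. The labels do not explain these tags, and nothing in them says that arrays of a group came from different rats. Each p-value thus measures only how far these particular arrays scattered, and that scatter may be technical.

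Changes are given as log2 of the intensity plus 16, stress minus handled, with the standard error of the fit. The offset makes the change of a dim transcript smaller than its ratio of intensities. Adjusted p-values come from limma with Benjamini-Hochberg adjustment over 18625 probe sets, and a probe set was called when its adjusted p was under 0.05. In cortex 75 probe sets were called, 50 lower after stress (0.268% of those tested) and 25 higher (0.134%). In all 75 the 3 stress arrays and the 3 handled arrays did not overlap, and 12 changed by at least 2-fold on this scale. Of the 75, 57 had a single gene symbol and covered 55 genes, while 12 lower and 6 higher probe sets had no single symbol. With 1 probe set per gene, 32 of 10256 named genes were called lower (0.312%) and 14 higher (0.137%).

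The number called depended on which arrays entered the fit. The spread between arrays of a group was smaller in cortex, with a median SD of 0.120 log2 units, than in amygdala (0.166) or hippocampus (0.163), and the fit pools all 3. A fit of the 6 cortex arrays alone called 560 probe sets, 291 lower and 269 higher, and all 75 were among them. In that fit 1.72% of the named genes passed as lower and 1.06% as higher. Leaving out the amygdala array titled stress 1 alone raised the count from 75 to 167. Leaving out cortex stress 1, 2 or 3 gave 37, 44 or 34, and leaving out handled cortex 1, 2 or 3 gave 36, 36 or 35. Of 46 genes named by a rule (the largest called changes and the called members of gene lists), 16 were called in every alternative in which they were tested. These were Igf2, Col1a2, Igfbp2, Cd74, Col3a1, Ptgds, Gjb2, Ogn, Dab2, Cyp26b1, Hbb and Inka2 among the lower genes, and Spry2, Htr2c, Ildr2 and Cdc73 among the higher.

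Among named genes the largest decreases in stressed cortex were those of Igf2, Col1a2 and Igfbp2, all transcripts of the meninges. Of 30 listed genes of the meningeal fibroblast matrix, 21 were bright enough to be tested, 4 fell (Col1a2, Col3a1, Ogn and Lum) and none rose. Of 37 listed leptomeningeal barrier and transport genes, 17 were tested, 4 fell (Igf2, Igfbp2, Ptgds and Gjb2) and none rose. Over all named genes 0.312% were called lower and 0.137% higher. The median change was -0.43 for the matrix list and -0.46 for the barrier list, against -0.01 over all named genes. In the matrix list 18 of 21 changes were below 0 and in the barrier list 14 of 17, against 52.6% of all named genes. These lists, like all 37 used here, were chosen with earlier results of these data known. Their counts and medians therefore describe the data and are no independent test. In bulk RNA, fewer cells of a type and less RNA per cell cannot be told apart.

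Col1a2, the alpha 2 chain of type I collagen, read 60.5, 63.0 and 66.6 in the stress arrays and 209, 197.8 and 190.1 in the handled arrays. Every handled array was far above any stress array, and the change was -1.44 ± 0.16 (adjusted p = 1.64e-05). A second Col1a2 probe set, named after its values were seen, gave -1.33 ± 0.24. Col3a1, the type III collagen chain, read 103, 89.3 and 93.8 after stress against 246, 247 and 234 after handling, a change of -1.22 ± 0.16 (adjusted p = 0.000248). Here too the groups lay far apart. Ogn, the small leucine-rich proteoglycan osteoglycin, read 116, 84.1 and 104 against 202, 210.1 and 217, a change of -0.95 ± 0.16 (adjusted p = 0.00397). Lum, the related proteoglycan lumican, read 38.1, 34.5 and 52.5 against 84.2, 81.9 and 100.3 (-0.87 ± 0.18, adjusted p = 0.0356). Both proteoglycans were lower in each stress array than in any handled array, but the call for Lum held in only 1 of the 6 fits that left out a cortex array, the one without stress 3.

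Among matrix genes 5 more passed as lower in the fit of the cortex arrays alone, without passing in the fit of all arrays. The fit of the cortex arrays passed 1.72% of all named genes as lower. Mgp, the matrix Gla protein that inhibits calcification, read 119, 148 and 114 against 264, 278 and 249.9 (-0.98 ± 0.23, adjusted p = 0.0582 over all arrays and 8.83e-05 over the cortex arrays). The proteoglycans Dcn and Bgn had changes of -0.91 ± 0.22 and -0.70 ± 0.18, the collagen chain Col1a1 -0.76 ± 0.23, and fibronectin, Fn1, -0.49 ± 0.14. Over the whole matrix list the 3 stress arrays lay below the 3 handled arrays in 13 of 21 genes and above in none. That separation occurred in 12.6% of all named genes for lower and in 10.8% for higher. The 3 matrix genes with a change above 0 were Fbln2 at 0.17, Efemp1 at 0.08 and Fbn1 at 0.03, none of them called.

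Igf2, a growth factor released by the leptomeninges, read 110.4, 175 and 140.3 in stress arrays and 419, 414 and 465 in handled arrays. Its mean of 433 ± 28.4 (SD, n = 3) after handling was 3.05 times the mean of 142 ± 32.3 after stress, and the change was -1.53 ± 0.12 (adjusted p = 2.06e-07). Igfbp2, a binding protein of the insulin-like growth factors, read 164, 115 and 138 against 382, 355 and 333 (-1.28 ± 0.12, adjusted p = 3.3e-06). For both genes the dimmest handled array was far above the brightest stress array. Ptgds, the prostaglandin D synthase of the leptomeninges and choroid plexus, was far brighter at 1448, 1369.7 and 1367 against 3178, 2971 and 3019 (-1.12 ± 0.06, adjusted p = 3.68e-11). Gjb2, the gap junction protein connexin 26, read 121, 118 and 125 against 289.7, 277 and 277 (-1.11 ± 0.15, adjusted p = 0.000248). Arrays of each group agreed closely for Ptgds and Gjb2. The smallest adjusted p in cortex belonged to Ptgds, with a standard error of 0.06 in the fit of all arrays, and not to the gene with the largest change.

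In the fit of the cortex arrays alone, 3 further barrier genes passed as lower and 1 as higher, beside 1.72% and 1.06% of all named genes. Slc13a4, a sulfate transporter, read 46.1, 38.7 and 32.1 against 65.1, 82.7 and 83.8 (-0.76 ± 0.23, adjusted p = 0.183 over all arrays and 0.0167 over the cortex arrays). The organic anion transporter Slc22a8 and the retinoic acid synthesizing enzyme Aldh1a2 had changes of -0.67 ± 0.18 and -0.73 ± 0.20. Ccn3, a secreted matrix-associated protein that cortical neurons also make, was the higher one at 0.21 ± 0.08. Summed over the 17 barrier genes, intensities were 3949 to 4035 in the stress arrays and 6365 to 6640 in the handled arrays. Most of that gap was carried by the 4 called genes, Ptgds alone having means of 1395 ± 45.9 and 3056 ± 108 (SD, n = 3). Summed over the 21 matrix genes, they were 1911 to 2030 and 2879 to 2988. Whether the amount of meninges on the tissue differed between the groups was not tested.

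**Figure D1:**
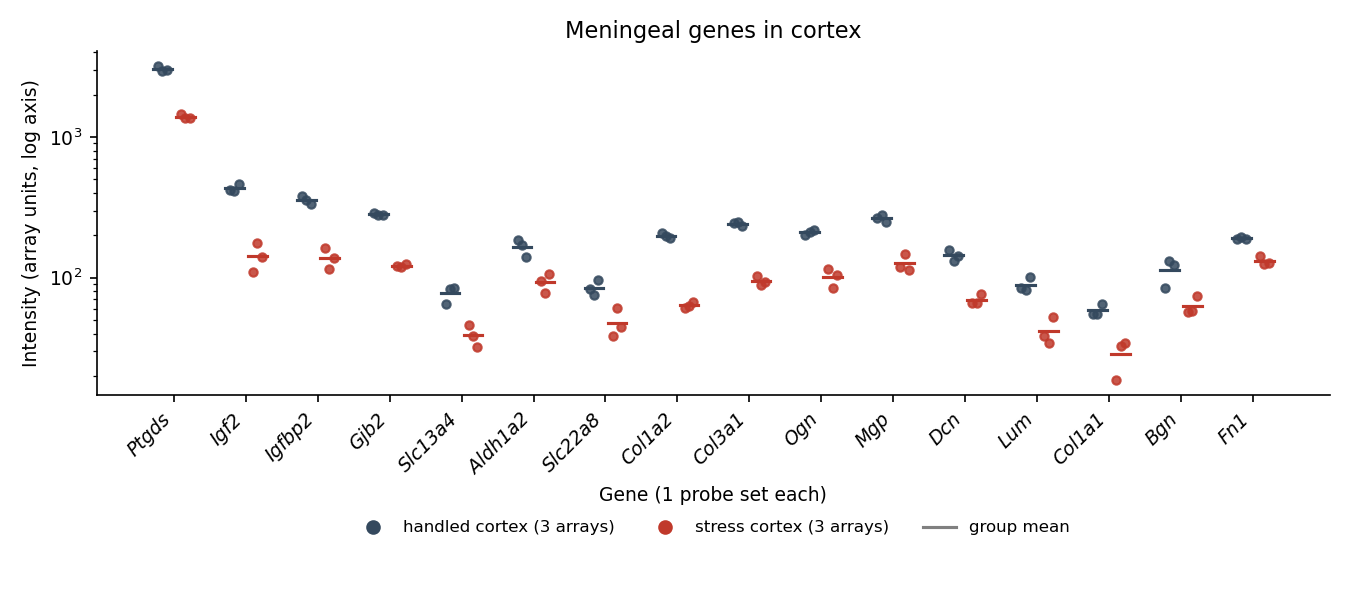
Intensity in array units (log axis) of 16 meningeal genes on the 3 handled and 3 stress cortex arrays, with a bar at each group mean. For each gene shown, all 3 stress arrays lie below the 3 handled arrays, as for Igf2 at 110.4 to 175 against 414 to 465. The genes shown were picked from those with this separation, which 13 of 21 tested matrix genes and 11 of 17 tested barrier genes had. In 1 barrier gene the stress arrays lay above the handled arrays.

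Around these genes, other members of the insulin-like growth factor axis had smaller changes. Of 12 tested genes of the axis Igf2 and Igfbp2 fell and none rose, beside 0.312% and 0.137% of all named genes. Both are the genes already counted on the barrier list. With them included the median change was -0.19, against -0.01 over all named genes. Igfbp4, a further binding protein, was lower only in the fit of the cortex arrays (-0.45 ± 0.15, adjusted p = 0.254 over all arrays and 0.0326 over the cortex arrays). The growth factor Igf1 and the receptor Igf1r had changes of -0.11 ± 0.27 and -0.06 ± 0.11, not called in either fit.

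Retinoic acid is made from vitamin A in the meninges and broken down by Cyp26 enzymes inside the brain. Of 13 tested genes of this pathway 1 fell and none rose, beside 0.312% of all named genes called lower. Still, 12 changes were below 0, against 52.6% of all named genes, and the median was -0.18. Cyp26b1, the breakdown enzyme, read 337, 292 and 298 after stress against 529, 530.2 and 604 after handling (-0.81 ± 0.08, adjusted p = 2.32e-06). The synthesizing enzyme Aldh1a2 is the barrier gene already described. The nuclear receptor Rarb, a known target of retinoic acid, had a change of 0.08 ± 0.19 and overlapping groups.

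Of 13 tested genes of mural cells and smooth muscle 1 fell, beside 0.312% of all named genes, and the median was -0.23. A total of 11 changes were below 0, against 52.6% of all named genes. In the fit of the cortex arrays 4 passed as lower, beside 1.72% of all named genes. Myl9, a myosin light chain of smooth muscle, read 54.5, 45.8 and 74.6 against 116, 121 and 127 (-0.90 ± 0.20, adjusted p = 0.0478), and its call held in only 1 of the 6 fits that left out a cortex array, the one without stress 3. The smooth muscle myosin heavy chain Myh11 (-1.01 ± 0.24), desmin, Des (-0.66 ± 0.19), and smooth muscle actin, Acta2 (-0.53 ± 0.19), passed only in the fit of the cortex arrays. The pericyte genes Rgs5 and Abcc9 of the same list had changes of -0.04 and 0.05, not called, and the difference from smooth muscle genes was not tested.

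Of 18 tested endothelial genes none was called, and the median was -0.11. Vwf, the von Willebrand factor of endothelium, passed as lower in the fit of the cortex arrays (-0.66 ± 0.21, adjusted p = 0.0165, and 0.234 over all arrays). Tm4sf1, a membrane protein known from endothelium and outside the lists, fell from 103, 120.2 and 122 to 66.2, 53.0 and 63.6 (-0.77 ± 0.14, adjusted p = 0.00886).

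Haemoglobin, which marks blood left in the tissue, was lower as well. Hbb, the beta chain, read 2050.1, 2002 and 1885 against 3264, 3055 and 3295 (-0.69 ± 0.07, adjusted p = 1.34e-05). Of the 3 tested genes of red cells Hbb fell, Hba-a3 had a change of -0.79 ± 0.19 that passed only over the cortex arrays, and Alas2, the first enzyme of haem synthesis in red cells, had -0.40. Their summed intensity was 2098 to 2225 after stress and 3441 to 3601 after handling. The part of residual blood in the other decreases was not tested.

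Among immune genes Cd74 and C1r fell, and no gene of the microglia list was called. Cd74, the invariant chain that escorts class II molecules, read 41.2, 56.8 and 39.0 against 113, 115 and 157 (-1.23 ± 0.17, adjusted p = 0.0003). RT1-Da, a class II alpha chain, passed as lower only in the fit of the cortex arrays, at 45.8, 51.5 and 49.4 against 77.8, 85.2 and 105 (-0.69 ± 0.21, adjusted p = 0.0158, and 0.191 over all arrays). Cd74 was the only one of 14 tested genes of antigen presentation to be called, beside 0.312% of all named genes called lower, and the list's median was -0.06. The stress arrays lay below the handled arrays in 4 of the 14 genes and above in 3, beside 12.6% and 10.8% of all named genes. Probe sets of RT1 and globin genes may also read near-identical paralogs. The class I genes RT1-T24-3, RT1-S3 and RT1-M3-1 had changes of 0.29 ± 0.16, 0.27 ± 0.21 and 0.20 ± 0.13. The class I partner B2m had a change of 0.07 ± 0.05, and none of these was called in either fit. C1r, a protease that starts the complement cascade, read 47.4, 51.6 and 48.8 against 107, 94.9 and 105 (-0.86 ± 0.17, adjusted p = 0.0223).

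Dab2, an endocytic adaptor, fell from 332, 338 and 313 to 152, 189.8 and 170 (-0.88 ± 0.14, adjusted p = 0.00201), each stress array being below each handled array. None of 18 tested microglia and macrophage genes was called in either fit. Among them the complement subunit C1qa had a change of -0.06 ± 0.09, the chemokine receptor Cx3cr1 -0.02 ± 0.20 and the mannose receptor Mrc1 -0.23 ± 0.21. None of 15 interferon-induced genes was called in either fit, and their median was 0.12.

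The proximal promoter of RT1-Da is shown because class II genes share the Y box, a CCAAT element bound by NF-Y. It comes from RefSeq on the GRCr8 build, plus strand, at chr20:4515165-4515464, from 250 bases before to 50 after the gene's start, with the Y box in capitals.
RT1-Da: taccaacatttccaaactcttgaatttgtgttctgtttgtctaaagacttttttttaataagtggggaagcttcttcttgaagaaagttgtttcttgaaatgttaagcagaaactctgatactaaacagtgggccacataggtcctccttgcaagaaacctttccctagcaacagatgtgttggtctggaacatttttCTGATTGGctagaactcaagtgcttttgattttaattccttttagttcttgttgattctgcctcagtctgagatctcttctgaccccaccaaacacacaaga
The letters CTGATTGG were searched on both strands. They were found in 4 of 13 antigen presentation genes with a promoter in the table, Psmb9, RT1-Da, RT1-M3-1 and RT1-S3, and in 3.50% of 33469 promoters of this length. Of these 4 only RT1-Da is a class II gene, and Cd74, RT1-DMa and RT1-DMb were not among the matches. A match of letters is no measurement of binding.

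Among immediate early genes Fos fell, and most other changes were below 0 without passing. Of 44 listed, 33 were tested and 1 was called (Fos), beside 0.312% of all named genes called lower. A total of 25 changes were below 0, against 52.6% of all named genes, and the median was -0.17. In 14 of the 33 the 3 stress arrays lay below the 3 handled arrays, and in none above, beside 12.6% and 10.8% of all named genes. Fos, the AP-1 subunit induced by neuronal activity, read 81.8, 65.5 and 68.0 against 158, 147 and 136 (-0.90 ± 0.18, adjusted p = 0.0197). The call for Fos held in only 1 of the 6 fits that left out a cortex array, the one without stress 1.

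In the fit of the cortex arrays alone 4 more passed as lower, beside 1.72% of all named genes. Egr2, a zinc finger factor induced by activity, read 55.0, 71.2 and 42.9 against 117, 104 and 100.04 (-0.78 ± 0.19, adjusted p = 0.0725 over all arrays and 0.0123 over the cortex arrays). Egr1, its relative, read 1073, 1109 and 1013 against 1314, 1305 and 1279, a change of -0.28 ± 0.08. Ier5, a regulator of the heat shock factor, had -0.37 ± 0.10, and Rgs4, a brake on G-protein signalling, -0.21 ± 0.08. All 4 had no overlap between the groups.

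Several members with as little overlap passed in neither fit. Arc, which controls the trafficking of AMPA receptors, read 57.5, 77.5 and 84.5 against 90.5, 99.7 and 112 (-0.40 ± 0.14). Klf4, a zinc finger factor, read 21.1, 39.7 and 37.4 against 55.9, 52.3 and 57.3, levels at which array noise is large. Others stayed near 0, with the AP-1 subunit Jun at 0.04 and the neurotrophin Bdnf at 0.09 ± 0.11. The Homer1 probe set used for the list, for a postsynaptic scaffold, had -0.05, while another of its 5 probe sets, named after its values were seen, fell from 300.1, 308 and 342 to 239, 246 and 222 (-0.40 ± 0.08, adjusted p = 0.0271).

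**Figure D2:**
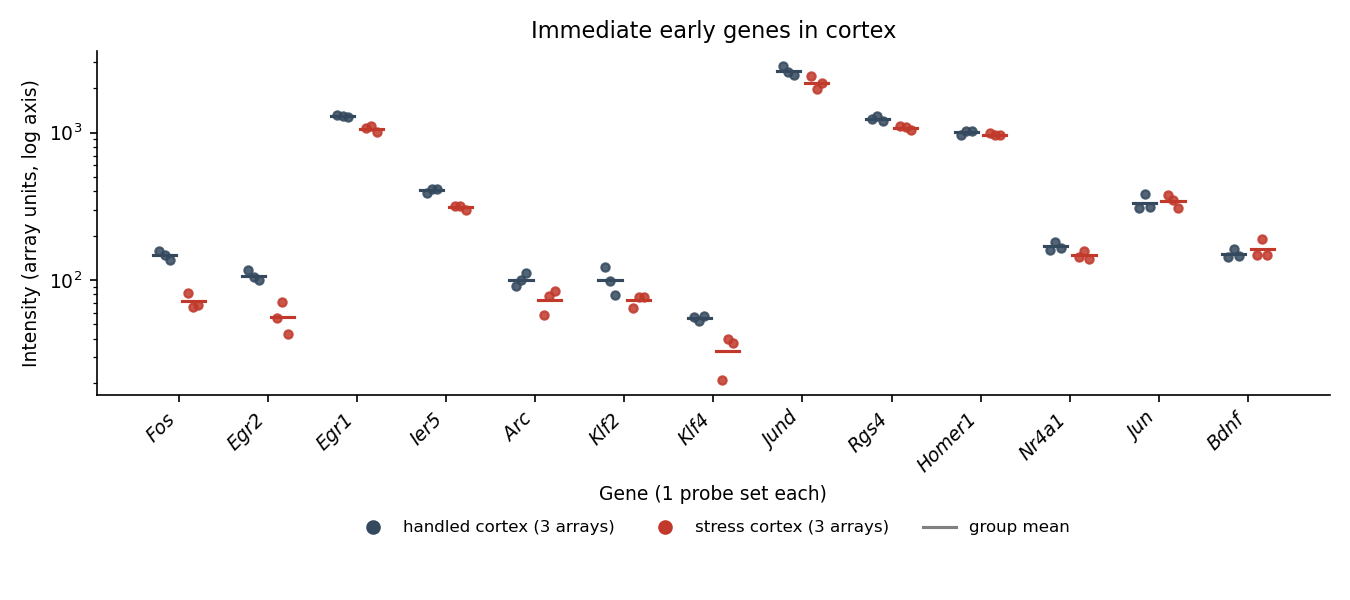
Intensity in array units (log axis) of 13 immediate early genes on the 3 handled and 3 stress cortex arrays, with a bar at each group mean. Fos, at 65.5 to 81.8 after stress against 136 to 158 after handling, is the gene shown that passed over all arrays; Jun and Bdnf overlap between the groups.

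The Egr2 promoter is shown because immediate early genes respond to neuronal activity through serum response factor, which binds CArG boxes, and through CREB, which binds cyclic AMP response elements. It comes from RefSeq on the GRCr8 build, minus strand, at chr20:21054392-21054691, from 250 bases before to 50 after the gene's start, with a CArG box and then the core of a cyclic AMP response element in capitals.
Egr2: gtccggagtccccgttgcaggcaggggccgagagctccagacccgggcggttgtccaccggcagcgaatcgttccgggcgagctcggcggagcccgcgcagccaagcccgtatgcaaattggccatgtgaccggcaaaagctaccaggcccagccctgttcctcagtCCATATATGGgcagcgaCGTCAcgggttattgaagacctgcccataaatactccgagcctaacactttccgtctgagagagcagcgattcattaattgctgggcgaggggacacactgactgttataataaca
A CArG box was found in the promoters of Egr1, Egr2 and Klf6, 3 of the 27 tested immediate early genes with a promoter in the table, and in 1.64% of all 33469 promoters. The core, TGACG or its reverse complement CGTCA, was found in 17 of the 27 and in 21.2% of all. Both strands were searched, and the matches are letters only.

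Gabbr2, a subunit of the GABA-B receptor, read 1282, 1267 and 1287 against 1751, 1692 and 1693 (-0.42 ± 0.07, adjusted p = 0.00345). It was the only one of 15 tested GABA genes to be called, beside 0.312% of all named genes called lower, and the list's median was 0.06. Its partner subunit Gabbr1 had a change of 0.05. Gad1, which makes GABA, passed as higher only in the fit of the cortex arrays, at 2200.2, 2268 and 2162 against 1972, 1967 and 1933 (0.17 ± 0.05).

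Of 24 tested glutamate receptor and transporter genes none was called over all arrays. In the fit of the cortex arrays the AMPA receptor subunits Gria3 (0.25 ± 0.10) and Gria4 (0.45 ± 0.16) passed as higher. The metabotropic receptor Grm5 (-0.37 ± 0.17) passed there as lower. Standard errors in that fit were 0.06 for Gria3, 0.11 for Gria4 and 0.07 for Grm5. None of 34 genes of synapse and dendrite was called over all arrays. There Cplx2, a regulator of vesicle fusion (-0.48 ± 0.12), Camk2a, a kinase of synaptic plasticity (-0.40 ± 0.11), and Nrgn, a calmodulin buffer of dendrites (-0.21 ± 0.06), passed as lower in the fit of the cortex arrays. The vesicle calcium sensor Syt1 passed there as higher (0.30 ± 0.18). Both lists stand beside 1.72% of all named genes passing as lower in that fit and 1.06% as higher.

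Vim, an intermediate filament of meningeal cells, endothelium and immature astrocytes, read 277, 336 and 312 against 454, 481 and 496 (-0.61 ± 0.10, adjusted p = 0.00471). It was the only called gene of 21 tested on the astrocyte list, where Gfap and Aqp4, both defining markers, had changes of -0.06 ± 0.06 and 0.08 ± 0.07. Enpp2, which makes lysophosphatidic acid in oligodendrocytes and choroid plexus, read 399, 374 and 379.6 against 503, 547 and 500.0 (-0.41 ± 0.08, adjusted p = 0.0136). It was the only called gene of 22 on the oligodendrocyte list, where Mbp of myelin had -0.07 ± 0.07. Enpp2 was also the only one called of 9 on the choroid plexus list, where Ttr had -0.06 ± 0.14. On the choroid plexus list 7 of 9 changes were below 0, against 52.6% of all named genes, and the median was -0.27. Ccnd2, a cyclin that drives cells into division, fell from 419.8, 458 and 414 to 279.6, 266 and 279.6 (-0.62 ± 0.12, adjusted p = 0.0173).

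Inka2, an inhibitor of a p21-activated kinase, fell by 0.47 ± 0.08 on the log2 scale (828, 842 and 863 against 1166, 1248 and 1119). Mef2a, a transcription factor of neurons and muscle, fell by 0.52 ± 0.10 in 1 of its 4 probe sets. The largest of these decreases was in Anp32a, a nuclear inhibitor of protein phosphatase 2A, at 323, 379.8 and 431 against 816, 805 and 823 (-1.09 ± 0.22, adjusted p = 0.0228). Its call was lost when any single cortex array was left out, as were those of C1r, Ccnd2 and Arhgap32. The formin Fmnl1 (-0.44 ± 0.08), the chaperone Fkbp9 of the endoplasmic reticulum (-0.43 ± 0.09), Arhgap32 (-0.47 ± 0.11) and D430041D05Rikl (-0.49 ± 0.10) completed the lower genes named by the rule. Outside it, and named after their values were seen, Ensa, Lpar1, Apod, Klhdc3, Atxn7l3b, Tcf4, Olfm1 and Lingo1 fell by smaller amounts, from -0.42 for Ensa to -0.22 for Lingo1.

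Among the 75 called probe sets 25 rose, although the fit of the cortex arrays alone called nearly as many higher (269) as lower (291). Htr2c, the serotonin 2C receptor, read 932, 883 and 865 against 599, 595 and 609 (0.56 ± 0.09, adjusted p = 0.00425). Of 9 tested serotonin genes it alone was called, beside 0.137% of all named genes called higher. A total of 7 changes were above 0, against 47.4% of all named genes, and the median was 0.13. The receptors Htr2a and Htr1a had changes of 0.15 ± 0.20 and 0.21 ± 0.15 with overlapping groups. Spry2, a feedback inhibitor of receptor tyrosine kinase signalling, read 600.5, 603 and 695 against 364, 434 and 488 (0.55 ± 0.09, adjusted p = 0.00328). It was the only one of 31 tested genes of growth factor feedback to be called, beside the same 0.137% of all named genes.

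Cdc73, a subunit of the Paf1 complex that travels with RNA polymerase II, read 345, 319 and 334 against 202, 203 and 209 (0.66 ± 0.10, adjusted p = 0.00156). Ildr2, a membrane protein of the immunoglobulin superfamily, read 539.5, 579 and 537 against 364, 347 and 384 (0.58 ± 0.08, adjusted p = 0.000731). Htr2c, Spry2, Cdc73 and Ildr2 were each called in every alternative tested.

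The 2 largest increases were in dim transcripts. Nr1i2, the xenobiotic sensor PXR, read 37.9, 38.2 and 32.7 against 17.2, 9.35 and 4.03 (1.03 ± 0.23, adjusted p = 0.0478). Nts, the peptide neurotensin, read 52.4, 47.1 and 63.7 against 27.3, 31.98 and 9.86 (0.89 ± 0.19, adjusted p = 0.0426). Each was called in only 1 of the 6 fits that left out a cortex array, Nr1i2 in the one without handled 1 and Nts in the one without handled 2. Nts was the only called gene among 34 neuropeptides and peptide receptors, beside 0.137% of all named genes called higher. At such levels the offset sets much of the size of a change.

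Tardbp, the RNA-binding protein TDP-43, read 519, 457 and 538 against 387, 292 and 381 (0.50 ± 0.10, adjusted p = 0.0263), the handled group being widened by its array 2. The splicing proteins Srsf11 (0.36 ± 0.08), Rsrp1 (0.35 ± 0.08) and Luc7l3 (0.29 ± 0.06), and the exosome-linked zinc knuckle protein Zcchc7 (0.49 ± 0.10), also rose, and none of these 4 is on the list of RNA binding and splicing genes. Of 27 tested genes of RNA binding and splicing 1 was called, Tardbp, beside 0.137% of all named genes called higher, and the median was 0.08. In the fit of the cortex arrays 5 passed as higher, with Hnrnph1, Hnrnpa2b1, Tra2b and U2af1 between 0.20 and 0.33. There 1 passed as lower, Rbfox2 at -0.29 ± 0.09. That fit passed 1.06% of all named genes as higher and 1.72% as lower.

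The remaining higher genes were Arhgap6 (0.64 ± 0.14), Srp72 of the signal recognition particle (0.53 ± 0.12), Lrrc8b, a subunit of volume-regulated anion channels (0.51 ± 0.11), and Arl6ip5 of the endoplasmic reticulum (0.46 ± 0.10). With them rose Got1, the cytosolic aspartate aminotransferase (0.40 ± 0.08), Rtn4, the myelin inhibitor Nogo (0.38 ± 0.08), and Ywhab, the adaptor 14-3-3 beta (0.35 ± 0.06). The calls for Arhgap6, Srp72, Lrrc8b, Rtn4, Srsf11, Rsrp1 and Luc7l3 were lost when any single cortex array was left out. Gda, the guanine deaminase cypin, was called in both directions, at 0.29 ± 0.06 in the probe set named by the rule and at -0.27 ± 0.06 in another, so no direction is given for the gene. Among the called genes 25 had more than 1 probe set tested, 2 of them had more than 1 called, and 9 had another probe set of the opposite sign.

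**Figure D3:**
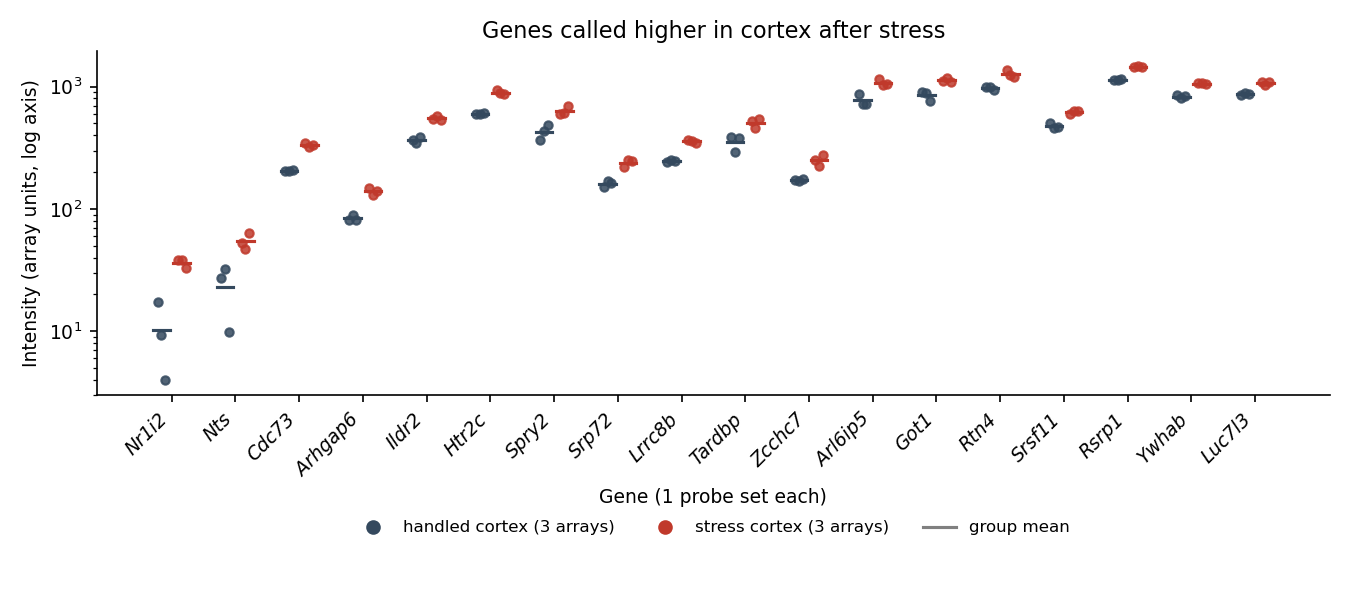
Intensity in array units (log axis) of 18 genes called higher after stress, on the 3 handled and 3 stress cortex arrays, with a bar at each group mean. The groups do not overlap for any gene shown; Nr1i2 and Nts have the lowest levels and, in the handled group, the widest scatter.

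Genes of the stress hormone system were not called in cortex. Nr3c1 read 445, 426 and 445 against 420.2, 404 and 429 (0.07 ± 0.09), and Nr3c2 read 345, 385 and 382 against 335, 317 and 298 (0.22 ± 0.08, adjusted p = 0.282), higher in each stress array but short of the threshold. The glucocorticoid-induced kinase Sgk1 had a change of 0.01 ± 0.07, and Tsc22d3, the glucocorticoid-induced leucine zipper protein, 0.16 ± 0.08. Fkbp5, the chaperone that restrains the glucocorticoid receptor, had 0.02 ± 0.12 and 0.34 ± 0.18 in 2 probe sets. Corticotropin-releasing hormone, Crh, had -0.01 ± 0.19, and Bdnf had 0.09 ± 0.11 and -0.21 ± 0.36. Of 28 tested genes of the glucocorticoid response none was called over all arrays, the median was 0.01, and Sult1a1, a sulfotransferase, passed as lower in the fit of the cortex arrays.

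In 19 of 37 gene lists no member was called over all arrays. Among them were the lists of neocortical layers (31 tested, median -0.03), interneurons (21, 0.05), oligodendrocyte precursors (10, 0.05), neurotrophins and their receptors (6, 0.05), the circadian clock (20, median 0.00), heat shock and chaperones (24, -0.02), DNA methylation and chromatin (26, -0.07), the respiratory chain (54, -0.03) and voltage-gated channels (38, 0.04). Dbp, a clock output gene, was near the threshold at 361, 432 and 389 against 267, 311 and 305 (0.40 ± 0.09, adjusted p = 0.054). Bmal1, the core activator of the clock, had the opposite sign (-0.47 ± 0.14), and both passed only in the fit of the cortex arrays. Median centring of the arrays moved the median of all named genes from -0.01 to 0.01. Over 18 settings the medians of neocortical layers, oligodendrocyte precursors, the clock and chaperones took the other sign in 1, 2, 6 and 3. Medians of the other lists named here kept their sign but came close to 0 in some settings, as for interneurons at 0.00 to 0.10.

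Most cytosolic ribosomal protein genes had small changes below 0 that were not called. Of 39 tested none was called over all arrays. In the fit of the cortex arrays 6 passed as lower, beside 1.72% of all named genes. A total of 35 changes were below 0, against 52.6% of all named genes, and the median was -0.10. In 17 all stress arrays lay below all handled arrays, against 12.6% of all named genes. Rps23, a protein of the small subunit, read 6179, 6133 and 5800.2 against 7163, 6662 and 7359.8 (-0.22 ± 0.05, adjusted p = 0.0582). With quantile normalization 28 were below 0 and the median was -0.04, so the size of this shift depended on the scaling between arrays.

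**Figure D4:**
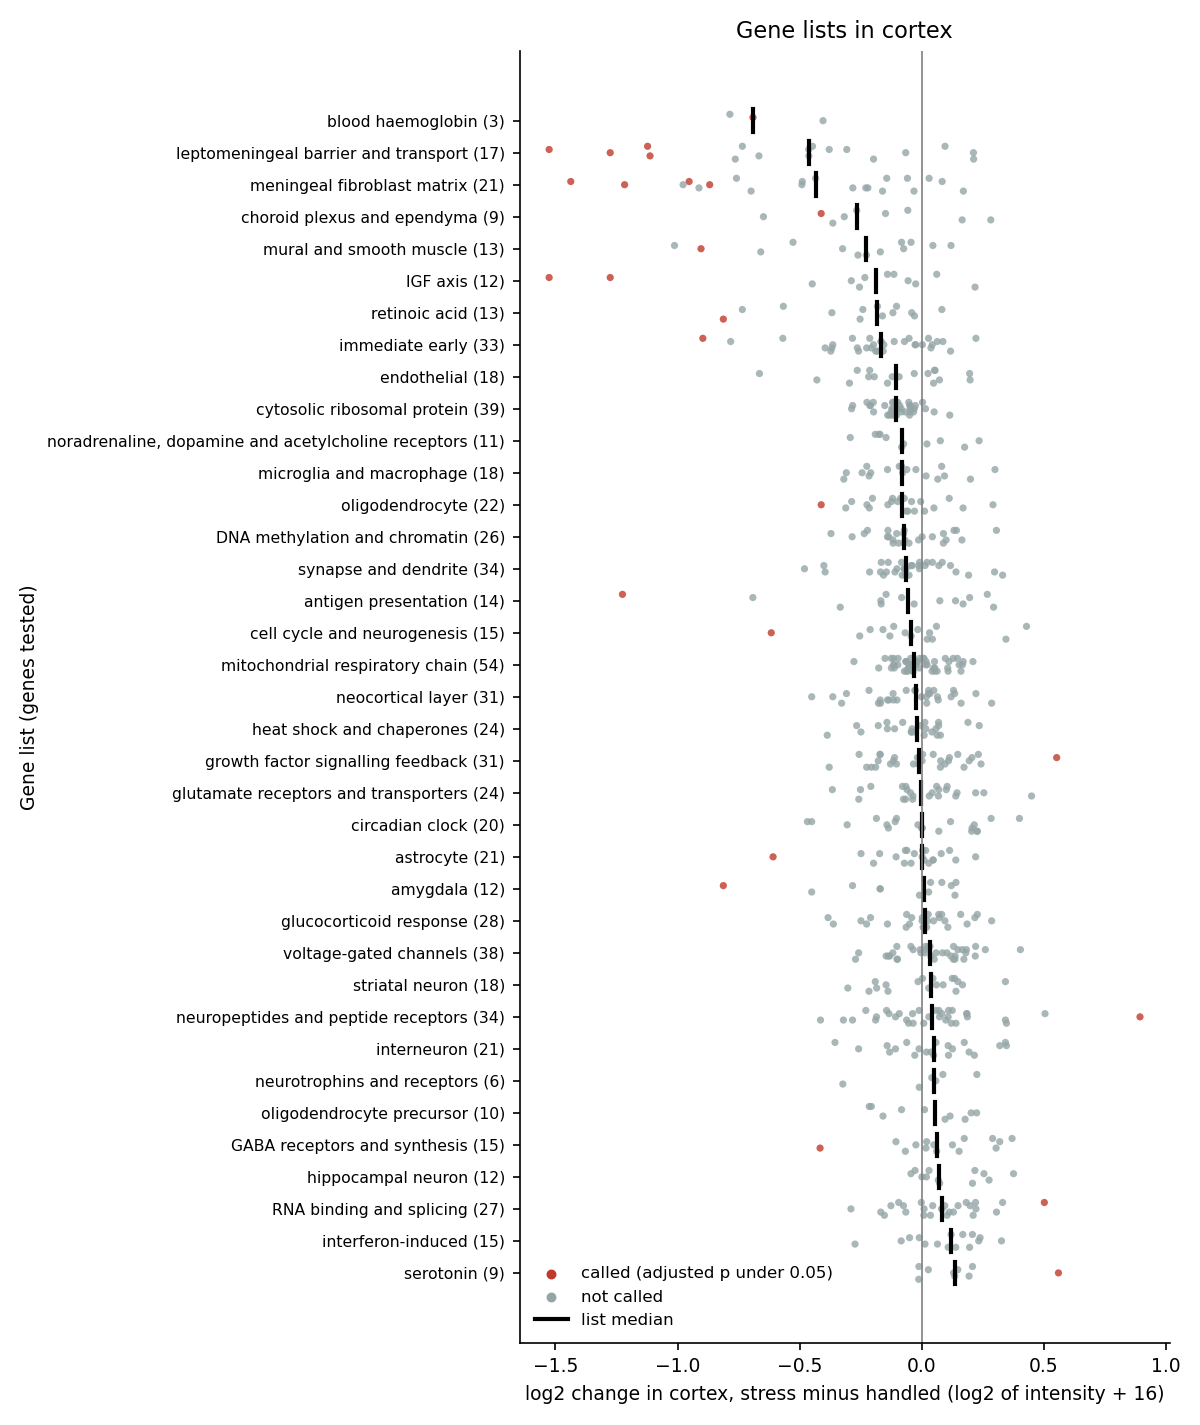
Change in cortex (log2 of intensity plus 16, stress minus handled) of every tested gene in 37 lists, 1 point per gene, red where the adjusted p was under 0.05, with a black bar at each list's median. Medians are lowest for haemoglobin (-0.69) and the meningeal lists (-0.46 and -0.43), and most other lists straddle 0.

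The other regions were used to test which cortical changes differed from those elsewhere. Both tests use the same 6 cortex arrays and so are not independent. The stress effect in cortex differed from that in amygdala for 24 probe sets (0.129% of those tested) and from that in hippocampus for 16 (0.0859%). Against amygdala 8 of the 24 were also called in cortex, 7 lower and 1 higher, and of the other 16, 15 were called in amygdala. Against hippocampus 9 of the 16 were also called in cortex, 7 lower and 2 higher, and the other 7 were called in hippocampus. Leaving out cortex stress 2 or 3 or handled cortex 1, 2 or 3 lowered the 24 to between 11 and 14, and leaving out cortex stress 3 or handled cortex 3 lowered the 16 to 10.

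Igf2 had changes of -0.03 ± 0.12 in amygdala and 0.17 ± 0.12 in hippocampus, so that the cortical effect differed by -1.50 ± 0.18 and -1.69 ± 0.18 (adjusted p = 0.000113 and 2.5e-05). Its level after handling was 433 in cortex, 151 in amygdala and 177 in hippocampus, and after stress 142, 148 and 201. By these means handled cortex was the highest of the 6 groups and stressed cortex the lowest, within 1 SD of stressed and handled amygdala. Igfbp2 had the same order in part, at 356.5 in handled cortex and 139 in stressed cortex against 79.5 to 167 in the other 4 groups.

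The collagens Col1a2 and Col3a1 differed from amygdala, by -1.46 ± 0.22 and -1.28 ± 0.23, but not by the test from hippocampus, where their own changes were -0.60 ± 0.16 and -0.64 ± 0.16. Ptgds differed from both regions (-1.09 ± 0.08 and -0.78 ± 0.08), as did Cyp26b1 (-0.68 ± 0.11 and -0.92 ± 0.11). Cyp26b1 was brightest in amygdala, at 1478 after handling and 1344 after stress, against 554.5 and 309 in cortex. Cd74 (-1.39 ± 0.24) and Enpp2 (-0.59 ± 0.11) differed from hippocampus. On the choroid plexus list Ttr and Sostdc1 rose in hippocampus after stress, by 1.62 ± 0.14 and 0.92 ± 0.19 (adjusted p = 4.65e-07 and 0.0307). Aqp1 and Foxj1 of that list had -0.58 ± 0.32 and -0.23 ± 0.26 there, not called, and the list's median was 0.18. The part of choroid plexus in the differences from hippocampus was not tested. The median change of the matrix list was 0.04 in amygdala and -0.17 in hippocampus, and that of the barrier list was -0.01 and -0.02.

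Higher genes that differed were Ywhab and Nts. Ywhab rose in cortex and had -0.43 ± 0.06 in amygdala and -0.13 ± 0.06 in hippocampus, differences of 0.78 ± 0.09 and 0.48 ± 0.09. Its other probe set had -0.10 in cortex and was not called. Nts was highest in handled hippocampus, at 174.5 against 92.0 after stress, and the cortical effect exceeded the hippocampal one by 1.70 ± 0.27 (adjusted p = 0.00592).

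For other cortical genes no difference between regions was called. Hbb had -0.41 ± 0.07 in amygdala and -0.83 ± 0.07 in hippocampus beside -0.69 ± 0.07 in cortex. Cdc73 had 0.58 ± 0.10 and 0.56 ± 0.10 beside 0.66 ± 0.10, and Htr2c had 0.22 ± 0.09 and 0.56 ± 0.09 beside 0.56 ± 0.09. Fos had -0.57 ± 0.18 in amygdala and -0.04 ± 0.18 in hippocampus beside -0.90 ± 0.18, and Ccnd2 had -0.60 ± 0.12 and -0.26 ± 0.12 beside -0.62 ± 0.12. A difference that misses the threshold does not show that the regions responded alike.

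**Figure D5:**
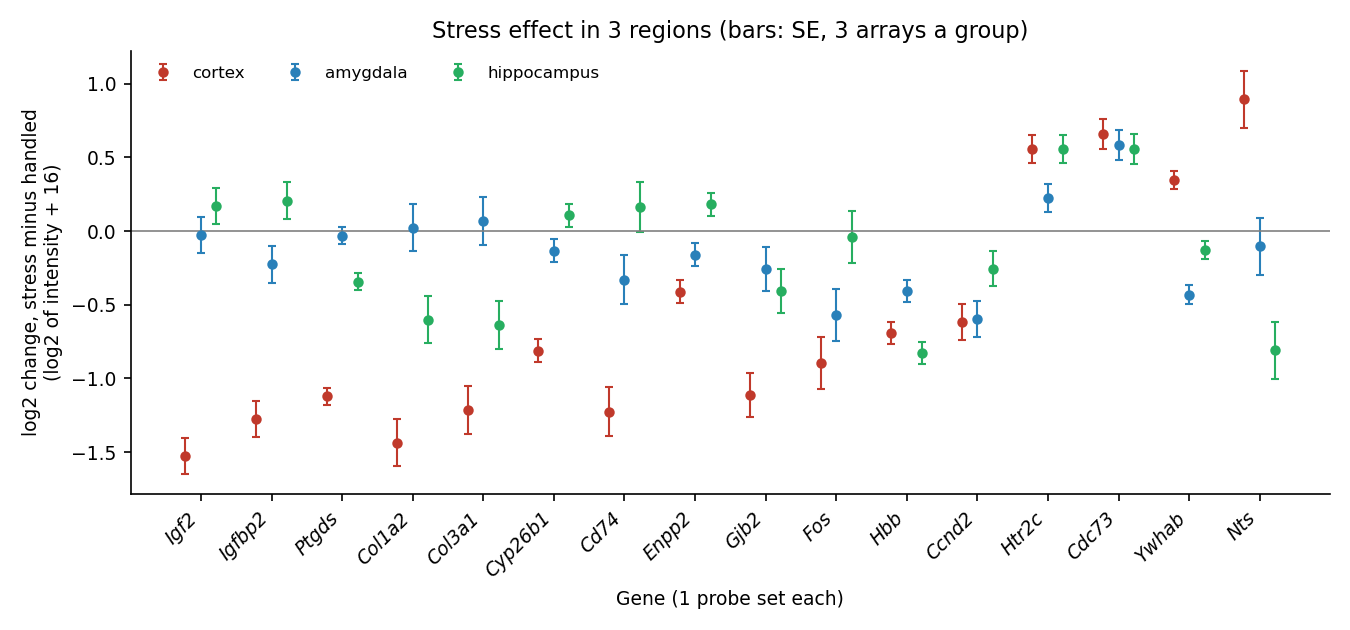
Stress effect (log2 of intensity plus 16, stress minus handled) of 16 genes in cortex, amygdala and hippocampus, with bars of 1 standard error and 3 arrays per group. Igf2 is at -1.53 in cortex and near 0 in the other regions, while Hbb, at -0.69, -0.41 and -0.83, is below 0 in all 3.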

How the data were processed

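Total RNA was measured on 18 Affymetrix rat expression arrays. The authors deposited linear intensities for each probe set. From the values, they had scaled all arrays to 1 mean, which hides any shift common to most bright transcripts. Summarising software and scan batch: not given in the sources used here. Symbols came from the platform annotation, updated through RefSeq: of 31099 probe sets 20832 had 1 symbol, 436 several and 9831 none. The 57 control probe sets were left out.

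Values were analysed as log2 of intensity plus 16. The filter kept means from the 40th percentile upward, 18625 probe sets with 10256 named genes. Group means over all 18 arrays were fitted with limma 3.58.1 in R 4.3.3, with a variance trend (12 residual and 10.2 prior degrees of freedom). Tests were two-sided. The script was tested on simulated data. Lists used the probe set of highest mean per gene.

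The comparison, the 37 lists and the naming rule were chosen with earlier results of these data known. The rule names up to 25 called genes per direction with the largest change and no overlap between arrays, called list members, 8 stress genes, and up to 10 per direction whose effect differed between regions and was called in cortex. Alternatives changed the offset (1 or 64), filter, scaling, trend, arrays fitted and a block for the number in the title. Same-numbered arrays did not deviate together in the correlations given below. The spiked hybridisation controls nevertheless had the same order by number in both cortex groups. Array weights, and a fit without amygdala stress 1, were added after seeing the data. Errors are standard errors for changes and SD for intensities (n = 3 arrays, which are not said to be separate rats). The number of arrays limits the precision.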

Additional observations from a re-analysis of the deposited data

Results flagged for a closer look

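The stress effect in cortex differed from that in another region, by a test of the difference itself, for 11 probe sets that were also called in cortex. Against amygdala, cortex was lower by the log2 differences of -1.50 for Igf2, -1.46 for Col1a2, -1.28 for Col3a1, -1.09 for Ptgds, -1.05 for Igfbp2 and -0.68 for Cyp26b1. It was also lower by -1.70 for a probe set with no gene symbol and higher by 0.78 for Ywhab. Against hippocampus, cortex was lower by -1.69 for Igf2, -1.48 for Igfbp2, -1.39 for Cd74, -0.92 for Cyp26b1, -0.78 for Ptgds and -0.59 for Enpp2. There the unnamed probe set differed by -1.60, Ywhab by 0.48 and Nts by 1.70.

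The unnamed probe set read 3.44, 2.50 and 2.70 in stressed cortex against 43.0, 38.9 and 41.2 in handled cortex. The stress values are near the floor of the arrays, so its size depends on the offset.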

How the results depend on the processing

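Against 75 called in cortex, no filter gave 48, no variance trend 43, the cortex arrays alone 560, array weights 621 and the fit without amygdala stress 1 167. Fits without 1 cortex array gave 34 to 44. Against 24 that differed from amygdala, no filter gave 15, no variance trend 9, array weights 60 and the fits without 1 cortex array 11 to 16. Against 16 that differed from hippocampus, those fits gave 10 to 14, the fit without amygdala stress 1 gave 17, and median centring split them into 5 higher and 8 lower in cortex in place of 8 and 8. No named probe set changed direction under any alternative. Of 57 probe sets with 1 symbol, 39 stayed called with median centring, 46 with quantile normalization and 57 in the cortex arrays alone.

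Same-numbered arrays did not deviate together: over 45 pairs r was -0.04 to 0.10. With a replicate block the counts were 54, 19 and 15. Intensities have no read depth, and dim transcripts such as Nts and Nr1i2 are limited by signal over background.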

Other observations

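The spiked hybridisation controls had the same order by array number in both cortex groups. For bioB the mean log2 intensity was 7.80, 7.44 and 7.75 in stress 1, 2 and 3 and 7.90, 7.59 and 7.76 in handled 1, 2 and 3, and for bioC it was 9.48, 9.17 and 9.41 against 9.57, 9.25 and 9.51. The log2 difference between 3' and 5' probe sets, a measure of RNA integrity, was 0.20, 0.26 and 0.27 for GAPDH after stress against 0.27, 0.33 and 0.26 after handling. For beta-actin it was 1.65, 1.63 and 1.57 against 1.73, 1.66 and 1.63, and for hexokinase 1.49, 1.41 and 1.24 against 1.23, 1.10 and 1.31, so the groups overlapped in each.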
